A study of Mus musculus with 10 samples.

Results

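The genes described here are 34 antiviral genes that type I interferon is known to induce and that stand outside the large interferon-induced gene families of the mouse. They were chosen by a list of gene symbols, matched through Ensembl gene identifiers, and all 34 were found among the 45318 identifiers of the deposited tables. Their RNA was measured in bone marrow derived macrophages (BMDM), primary macrophages grown in culture from marrow, of C57BL/6 mice. The cells were labelled wild type (WT) or Tlr4 -/- (KO), and TLR4 is the receptor for bacterial lipopolysaccharide. There were 10 libraries in 5 groups of 2. Untreated WT and untreated KO cells carried no treatment in the labels, which give no medium or time for them. WT control and KO control cells were collected after 6 h in medium holding 5% fetal bovine serum (FBS) and 2% bovine serum albumin (BSA). KO Poly(I:C) cells received Poly(I:C), a double-stranded RNA made in vitro, in their pre-treatment medium, for a time and with serum and albumin that the labels do not state. WT cells with Poly(I:C) were not analysed here. The sources used here do not give the age of the mice, the form of the Tlr4 mutation, the number of mice pooled, or whether the libraries of a group stem from separate cultures or animals. The p-values therefore measure the spread between these samples only, and that spread could be technical.

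Cells that sense viral nucleic acid, or lipopolysaccharide through TLR4 and the adaptor TRIF (gene Ticam1), activate IRF3 and secrete interferon beta. Secreted interferon binds its receptor on the same and neighbouring cells, and transcription factors activated by the receptor then bind interferon-stimulated response elements (ISRE) in the promoters of many genes. Poly(I:C) is sensed by TLR3 in endosomes and by the helicases RIG-I and MDA5 in the cytosol, none of which needs TLR4. The products of the genes described here block viral entry, copying, translation and release, attach the ubiquitin-like protein ISG15 to other proteins, or tune the sensing itself.

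Promoter windows of 300 bases, from 250 before to 50 after the start of the gene, were taken from RefSeq on build GRCm38.p6, where 29 of the 34 genes had one. The ISRE core was searched as a pair of GAAA blocks separated by any 2 bases, on both strands, and overlapping matches were each counted. It occurred in 8 of the 29 windows (27.6%), beside 4.12% of the 9917 tested genes with a window and 3.44% of all 32851 windows. The 8 genes were Isg15, Rsad2, Ddx60, Bst2, Phf11b, Eif2ak2, Ifitm3 and Lgals9. The core of the gamma-activated site was searched as TTCNNNGAA and occurred in 7 of 29 windows (24.1%), beside 8.27% of tested genes. The 6 windows below are shown because they span the range of this family: a window with a run of overlapping ISRE cores (Isg15), a divergent gene pair of which 1 window holds a match (Rsad2 and Cmpk2), and 3 windows with matches at different distances (Ddx60, Bst2, Phf11b). Each is written 5′ to 3′ on the strand of the gene, with the bases that match the ISRE core on either strand in capitals. They lie at chr4:156200769-156201068 (minus strand), chr12:26456403-26456702 (minus), chr12:26468965-26469264 (plus), chr8:61927837-61928136 (plus), chr8:71537423-71537722 (minus) and chr14:59341281-59341580 (minus).
Isg15: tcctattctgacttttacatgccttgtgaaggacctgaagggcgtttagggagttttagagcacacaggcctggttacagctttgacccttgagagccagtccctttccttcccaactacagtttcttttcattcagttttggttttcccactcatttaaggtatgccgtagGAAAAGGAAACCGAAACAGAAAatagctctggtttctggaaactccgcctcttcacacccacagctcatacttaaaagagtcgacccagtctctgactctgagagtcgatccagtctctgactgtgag
Rsad2: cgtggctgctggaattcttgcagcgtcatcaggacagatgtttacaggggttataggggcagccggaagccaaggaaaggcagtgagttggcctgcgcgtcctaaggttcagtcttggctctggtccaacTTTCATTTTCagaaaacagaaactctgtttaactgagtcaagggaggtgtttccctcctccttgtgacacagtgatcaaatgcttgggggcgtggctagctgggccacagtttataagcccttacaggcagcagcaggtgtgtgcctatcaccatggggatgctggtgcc
Cmpk2: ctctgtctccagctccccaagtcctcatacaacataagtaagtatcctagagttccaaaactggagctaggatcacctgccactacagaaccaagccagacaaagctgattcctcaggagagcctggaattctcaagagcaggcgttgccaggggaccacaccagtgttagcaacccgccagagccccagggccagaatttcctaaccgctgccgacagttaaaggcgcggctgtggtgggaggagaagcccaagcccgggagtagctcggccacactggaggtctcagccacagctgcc
Ddx60: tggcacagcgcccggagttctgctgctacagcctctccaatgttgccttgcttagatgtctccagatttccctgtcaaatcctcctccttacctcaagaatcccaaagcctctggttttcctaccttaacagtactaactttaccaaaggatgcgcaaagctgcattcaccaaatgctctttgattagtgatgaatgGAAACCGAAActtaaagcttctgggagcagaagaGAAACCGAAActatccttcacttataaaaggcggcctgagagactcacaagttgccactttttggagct
Bst2: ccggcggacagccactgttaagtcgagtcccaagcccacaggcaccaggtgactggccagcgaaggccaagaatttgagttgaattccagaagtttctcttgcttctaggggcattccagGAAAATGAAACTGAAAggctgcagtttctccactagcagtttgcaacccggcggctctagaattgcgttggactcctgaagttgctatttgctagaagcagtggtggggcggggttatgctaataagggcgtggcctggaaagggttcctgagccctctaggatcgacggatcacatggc
Phf11b: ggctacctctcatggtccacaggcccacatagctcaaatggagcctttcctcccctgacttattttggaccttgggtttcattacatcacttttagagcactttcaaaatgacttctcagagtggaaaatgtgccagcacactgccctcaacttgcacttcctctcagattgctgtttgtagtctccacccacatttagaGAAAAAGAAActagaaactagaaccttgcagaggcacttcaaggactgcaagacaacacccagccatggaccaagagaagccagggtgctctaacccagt
Counting from the start of the gene, 3 overlapping matches in Isg15 began at −78, −72 and −66. The Rsad2 match lay on the opposite strand, with its leftmost base at −120, and the Cmpk2 window held none. Ddx60 had matches at −53 and −19, Bst2 had overlapping ones at −130 and −124, and Phf11b had 1 at −50. A match is a description of these letters and shows no binding.

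Levels are given as CPM, each gene's deposited value as a share of the scaled library total, computed as described under the processing, and each comparison was tested with limma over 13171 genes. Genes count as called where the Benjamini-Hochberg adjusted p fell under 0.05. All 34 genes passed the filter on low values (10 or more in at least 2 libraries). Deposited totals were 25.2 to 26.7 M in untreated and KO control libraries, 42.0 and 41.1 M in WT control libraries, and 47.5 and 51.7 M in those with Poly(I:C). These totals carry a scaling factor and are not read depth, which is unknown, so no counting interval is given. Libraries of a group correlated at 0.992 to 0.994 across genes. Tlr4 itself, the targeted gene, was at 60.1 and 69.1 CPM in untreated WT and 44.4 and 44.9 CPM in untreated KO libraries (log2 difference −0.53 ± 0.14 SE, limma adjusted p = 0.346), so transcript was present under both labels, and 1 value per gene does not show which exons it came from. Genotypes below are therefore as labelled. Of 8 macrophage markers, all were at 1 CPM or more on average, and their summed level was 23400 to 27600 CPM in the 10 libraries. In the plasmacytoid dendritic cell list, 4 of 8 markers reached 1 CPM in any library. Its sum was 62.2 to 67.4 CPM in untreated and KO control libraries, 90.2 and 105 CPM in WT control and 151 and 186 CPM in KO Poly(I:C), most of it Tcf4. Its defining gene Siglech was at most 0.055 CPM and Ly6d was listed at 0 in every library. The neutrophil sum (7 of 9 markers reached 1 CPM) was 16.4 to 37.4 CPM in untreated and KO control libraries, 85.1 and 114 CPM in WT control and 100 and 106 CPM in KO Poly(I:C), while Ly6g and Retnlg were at most 0.22 CPM. The conventional dendritic cell sum (2 of 7 markers, Fscn1 and Ccr7) was 0.695 to 1.23 CPM in the first of these sets, 21.5 CPM or more in WT control and 17.4 and 17.7 CPM in KO Poly(I:C). Flt3, Zbtb46, Xcr1, Clec9a and Cd209a stayed under 0.5 CPM. In WT control over untreated WT, 4 of 5 tested plasmacytoid markers were called higher (33.1% of all tested genes). So were 5 of 7 tested neutrophil and 2 of 4 tested conventional dendritic cell markers. In KO Poly(I:C) over KO control these counts were 3, 6 and 3 (32.5% of all), and 1 plasmacytoid marker was called lower (36.9% of all). The B cell sum ran the other way, at 37.0 to 53.0 CPM in the first set and 7.53 to 11.4 CPM in WT control and KO Poly(I:C), and came from 1 of 5 markers. In the T and NK cell list 1 of 7 markers, in the stromal list 3 of 6 and in the erythroid and platelet list 3 of 6 reached 1 CPM, and their sums were at most 1.79, 6.48 and 523 CPM. The mitochondrial share of the deposited total was 2.01% to 2.51% in untreated and KO control libraries and 1.54% to 1.87% in WT control and KO Poly(I:C). The plasmacytoid dendritic cell, conventional dendritic cell and neutrophil sums were higher, and the B cell sum and the mitochondrial share lower, in the 4 libraries in which the antiviral genes were high, and their part in the result was not tested. The macrophage, T and NK cell, stromal and erythroid and platelet sums of these 4 libraries overlapped those of the other 6.

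Together the 34 genes made up 0.331% to 0.476% of the deposited total in the untreated and KO control libraries. They made up 2.06% and 2.43% in WT control and 3.46% and 3.64% in KO Poly(I:C). Because whole cultures were sequenced, more cells of a responding type and more RNA per cell cannot be told apart. Per kilobase of exon, the scale on which genes can be compared with each other, Ifitm3 was highest in untreated WT cells at 629 ± 101 CPM per kb (SD, n = 2). Bst2 at 286 and Ifi27l2a at 207 CPM per kb followed. In KO Poly(I:C) cells the order was Rsad2 at 3834 ± 334 (SD, n = 2), Isg15 at 3111 and Ifitm3 at 2057 CPM per kb, each apart from its neighbour by more than its SD. Rsad2 had been in place 8 of 34 in untreated WT cells, and Ifi27l2a went from place 3 to place 16.

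**Figure D1:**
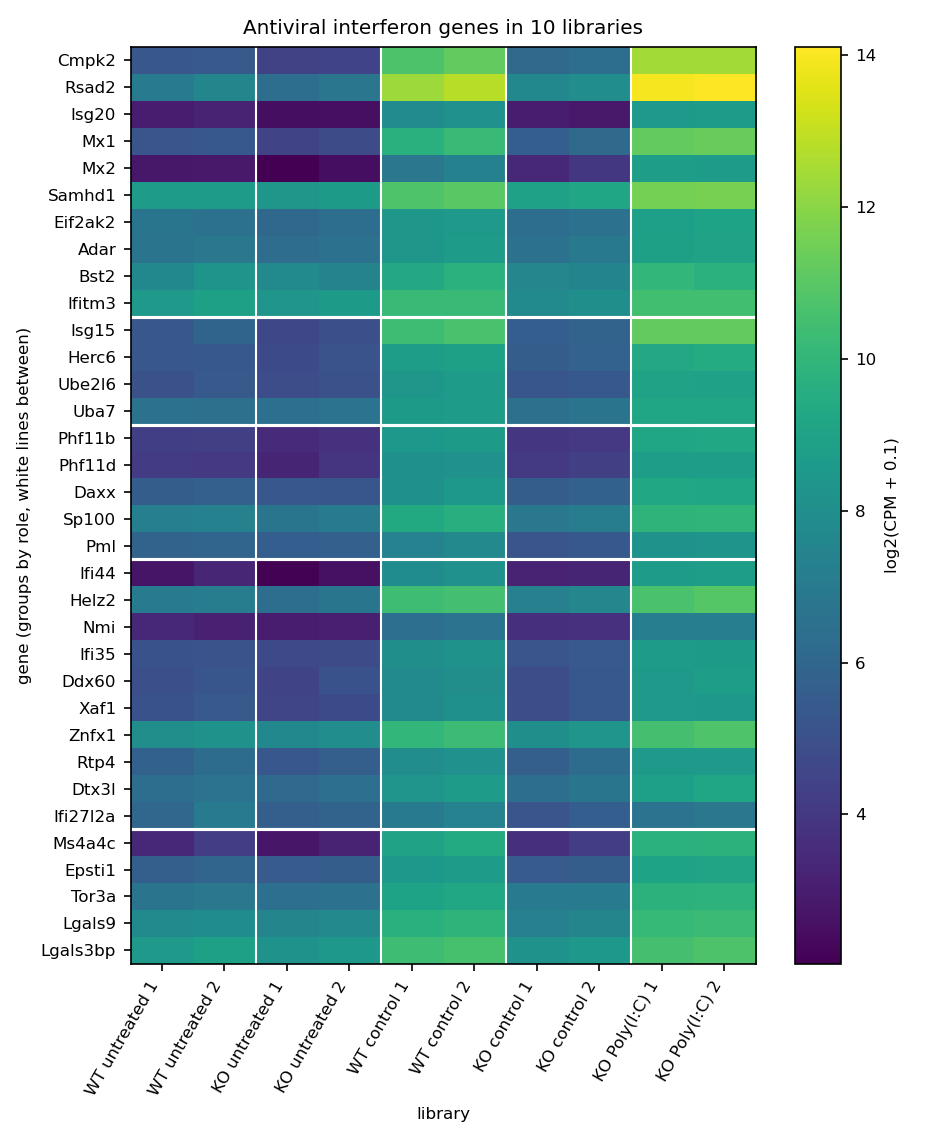
Level of each of the 34 genes (rows, in 5 role groups separated by white lines) in each of the 10 libraries (columns), as log2(CPM + 0.1) in colour. The WT control and KO Poly(I:C) columns are brighter than the other 6 in most rows, and Rsad2 in KO Poly(I:C) is the brightest cell, at 15598 and 17646 CPM.

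The first role group holds 10 genes listed as effectors on viral nucleic acid, translation, entry or release. Rsad2 encodes viperin, which makes a chain-terminating nucleotide. Its level was 133 and 189 CPM in untreated WT, 82.9 and 109 in untreated KO, 5137 and 7208 in WT control, 203 and 251 in KO control and 15598 and 17646 in KO Poly(I:C) libraries. Rsad2 was thus far higher in both WT control and both KO Poly(I:C) libraries than in the other 6, and no 2 groups overlapped. Cmpk2, its divergent neighbour and a mitochondrial nucleotide kinase, was at 39.7 and 42.7 CPM in untreated WT, 20.3 and 21.9 in untreated KO, 1687 and 2334 in WT control, 74.4 and 83.2 in KO control and 5468 and 5546 in KO Poly(I:C). The groups stood in the same order, again without overlap. Mx1, a dynamin-like GTPase that traps viral ribonucleoproteins and whose allele in C57BL/6 mice is known to be defective, was at 37.2 and 40.4 CPM in untreated WT, 22.3 and 27.6 in untreated KO, 828 and 1146 in WT control, 49.9 and 74.8 in KO control and 2362 and 2493 in KO Poly(I:C). Mx2, annotated as a polymorphic pseudogene in GENCODE M21, had 6.92 and 7.15 CPM in untreated WT, 3.99 and 5.55 in untreated KO, 114 and 164 in WT control, 10.2 and 15.7 in KO control and 440 and 423 in KO Poly(I:C). Both Mx genes were lowest in untreated KO and highest with Poly(I:C), with no overlap between groups. Isg20, an exonuclease that degrades RNA, was at 8.02 and 9.33 CPM in untreated WT, 5.53 and 5.64 in untreated KO, 233 and 280 in WT control, 7.76 and 7.07 in KO control and 371 and 412 in KO Poly(I:C). For Isg20 the KO control libraries lay just below those of untreated WT. Ifitm3, a membrane protein that blocks fusion of entering viruses, was at 378 and 475 CPM in untreated WT, 326 and 394 in untreated KO, 1155 and 1174 in WT control, 216 and 262 in KO control and 1406 and 1383 in KO Poly(I:C). The KO control libraries were the lowest of all 10 for Ifitm3. Group means of the other 4 effectors ran from 76.6 CPM (Eif2ak2, the kinase PKR, in untreated KO) to 3115 CPM (Samhd1, which degrades deoxynucleotides, with Poly(I:C)). Samhd1 was at 499 and 559 CPM in KO control, above both untreated groups. Bst2, or tetherin, which holds budding virus at the cell surface, had overlapping groups in untreated WT (202 and 315 CPM) and untreated KO (224 and 173 CPM). Adar, which edits double-stranded RNA, was at 95.7 and 122 CPM in KO control, overlapping untreated WT at 102 and 117 CPM.

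Of the 4 genes for ISG15 and its conjugation, Isg15, the modifier itself, was at 39.5 and 59.8 CPM in untreated WT, 25.4 and 31.9 in untreated KO, 1316 and 1574 in WT control, 49.5 and 59.2 in KO control and 2370 and 2334 in KO Poly(I:C). KO control overlapped untreated WT, and the other groups were apart. The E1 enzyme Uba7 was at 385 and 422 CPM in WT control and 565 and 578 CPM in KO Poly(I:C), and all 6 other libraries lay between 87.6 and 102 CPM. Ube2l6, the E2 enzyme, had 29.3 to 42.8 CPM in those 6 libraries, 345 and 398 in WT control and 503 and 489 in KO Poly(I:C). Herc6, the E3 ligase in mice, had 26.6 to 57.5 CPM in the 6, 425 and 479 in WT control and 649 and 711 in KO Poly(I:C). Its KO control libraries, at 48.6 and 57.5 CPM, were the highest of the 6.

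Among the 5 nuclear body and chromatin factors, Pml, the scaffold of PML nuclear bodies, was at 59.2 and 63.6 CPM in untreated WT, 49.5 and 52.5 in untreated KO, 167 and 212 in WT control, 36.8 and 41.4 in KO control and 304 and 313 in KO Poly(I:C). As for Ifitm3, KO control was the lowest group. Phf11b, a PHD-finger protein, was at 19.5 and 19.7 CPM in untreated WT, 11.3 and 13.5 in untreated KO, 351 and 386 in WT control, 15.2 and 16.1 in KO control and 587 and 612 in KO Poly(I:C), with no overlap between groups. Its neighbour Phf11d had 9.65 to 20 CPM in the untreated and KO control libraries, 271 and 283 in WT control and 435 and 450 in KO Poly(I:C). Daxx, a histone chaperone of the same bodies, was at 38.8 to 54.6 CPM, 273 and 356 CPM, and 612 and 588 CPM in these sets of libraries. Sp100, another body component, was at 107 to 163 CPM, 659 and 766 CPM, and 951 and 985 CPM.

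Among the 10 helicases, sensors and signalling regulators, Ifi44, a GTP-binding-like protein, was at 6.42 and 9.86 CPM in untreated WT, 4.15 and 5.77 in untreated KO, 236 and 281 in WT control, 9.18 and 9.57 in KO control and 398 and 431 in KO Poly(I:C). KO control lay inside the range of untreated WT. Helz2, a helicase coactivator, was at 85.1 to 138 CPM in untreated libraries, 157 and 197 in KO control, 1326 and 1463 in WT control and 1603 and 1945 in KO Poly(I:C). Znfx1, an RNA sensor at mitochondria, was at 204 to 296 CPM, 267 and 324 CPM, 1043 and 1280 CPM, and 1482 and 1746 CPM in the same order of groups. Nmi and Ifi35, which form a complex with each other, had group means of 8.09 to 13.2 CPM and 26.5 to 39.2 CPM in untreated and KO control cells, 93.3 ± 9.04 and 277 ± 18.5 CPM in WT control and 148 ± 0.579 and 400 ± 11 CPM (SD, n = 2) in KO Poly(I:C). Ddx60 (a helicase), Xaf1 (an apoptosis regulator), Rtp4 (a receptor chaperone) and Dtx3l (a ubiquitin ligase) had group means of 238 to 362 CPM in WT control and 361 to 507 CPM in KO Poly(I:C). Their group means elsewhere were 25.2 to 94.5 CPM. Ifi27l2a, a small membrane protein, differed from these in its spread. It was at 64.6 and 127 CPM in untreated WT, 50.7 and 59.0 in untreated KO, 127 and 167 in WT control, 37.6 and 49.9 in KO control and 98.1 and 113 in KO Poly(I:C). Its untreated WT libraries were far apart, and the higher one reached the lower WT control library.

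Of the 5 lectins and membrane or secretory proteins, Ms4a4c, a 4-span membrane protein, was at 10.4 and 18.4 CPM in untreated WT, 6.67 and 9.47 in untreated KO, 513 and 682 in WT control, 12.7 and 18.9 in KO control and 851 and 881 in KO Poly(I:C). KO control and untreated WT overlapped. The secreted lectin ligand Lgals3bp was at 303 to 470 CPM in untreated cells, and stood at 297 and 358 CPM in KO control, 1329 and 1522 in WT control and 1473 and 1678 in KO Poly(I:C). Lgals9, or galectin 9, was at 185 to 238 CPM in untreated cells, 155 and 182 in KO control, 840 and 946 in WT control and 1107 and 1236 in KO Poly(I:C). Tor3a, an ATPase of the endoplasmic reticulum, was at 86.1 to 116 CPM in untreated cells, 126 and 131 in KO control, 518 and 626 in WT control and 889 and 903 in KO Poly(I:C). Epsti1, an epithelial-stromal interaction protein, was at 44.6 to 62.3 CPM in the untreated and KO control libraries, 351 and 416 in WT control and 528 and 535 in KO Poly(I:C).

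**Figure D2:**
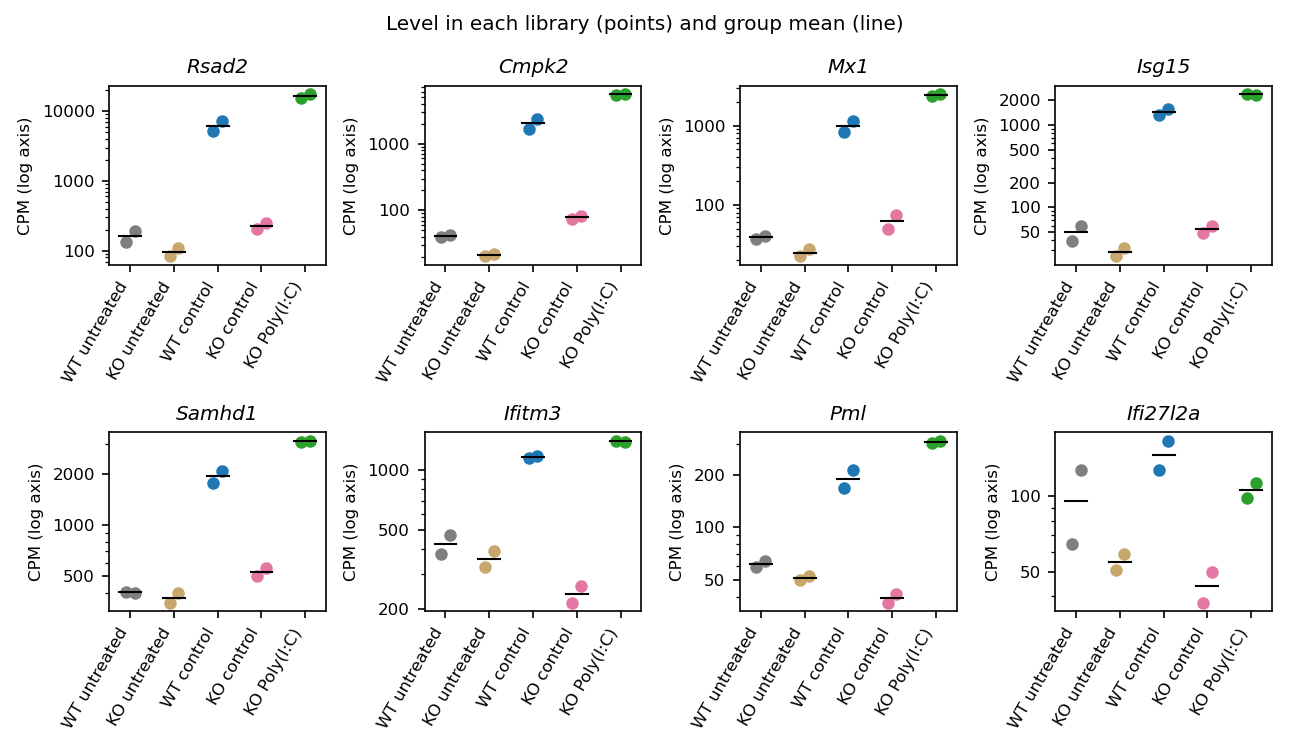
Level in CPM (log axis) of 8 genes in each library (points) with the group mean (line), for the 5 groups. Rsad2, Cmpk2, Mx1 and Samhd1 have KO control above both untreated groups, Ifitm3 and Pml have KO control lowest, and Ifi27l2a has overlapping groups.

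Without pre-treatment, the antiviral genes were lower in cells labelled KO, by amounts that for most genes did not pass the test. Cmpk2 fell by 0.96 ± 0.13 on the log2 scale (SE; limma adjusted p = 0.0225), from a mean of 41.2 to 21.1 CPM, and Phf11b fell by 0.67 ± 0.09 (limma adjusted p = 0.0255), from 19.6 to 12.4 CPM. These were 2 of 34 genes, against 0.0835% of all tested genes called lower, and 0 of 34 were called higher (0.0835% of all). The difference was negative for 33 of 34 genes, with a median of −0.38, beside −0.01 for all genes tested. Uba7, at 0.01 ± 0.09, was the other one. Both KO libraries lay below both WT libraries for 29 of 34 genes, beside 17.5% of all tested genes. Isg15 (−0.77 ± 0.18), Rsad2 (−0.74 ± 0.21) and Mx1 (−0.64 ± 0.19) did not pass, with limma adjusted p of 0.286, 0.357 and 0.374. At an unadjusted limma p under 0.05, 25 of the 34 genes were lower (4.06% of all tested genes) and 0 higher (4.64% of all). These counts over genes are not 34 separate results, since the genes also shifted together between the libraries of a group. Replicate 2 was higher than replicate 1 for 29 of 34 genes in untreated WT (median log2 difference 0.19). In untreated KO this held for 32 of 34 (median 0.25). The 10 effectors had a median of −0.48 and the 5 lectins and membrane proteins one of −0.26. The calls for Cmpk2 and Phf11b were lost in a fit on these 4 libraries alone and without the filter, and the number of genes called was 0 or 1 with any 1 of the 4 libraries left out: 1 without KO replicate 2 and 0 without each of the others.

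In WT cells every one of the 34 genes rose in control medium over untreated cells, from 1.61-fold for Ifi27l2a to 48.1-fold for Cmpk2. The series asks how loss of TLR4 bears on inflammatory signalling and lipid metabolism, and this comparison gives the response of cells labelled WT. The labels give no time or medium for untreated cells. Wherever control is set against untreated cells, effects of the medium and of a difference in time therefore cannot be told apart. All 34 passed the test (33.1% of all tested genes were called higher), with a median log2 difference of 2.73, beside −0.01 for all genes. Cmpk2 rose by 5.59 ± 0.13, Ms4a4c by 5.41 ± 0.28 and Rsad2 by 5.26 ± 0.21, with limma adjusted p of 7.53e-10, 9.92e-08 and 1.94e-08. Isg15 rose by 4.89 ± 0.18 and Mx1 by 4.65 ± 0.19 (limma adjusted p = 1.52e-08 and 2.8e-08). By role, the medians were 3.26 for the effectors, 3.40 for ISG15 conjugation, 2.63 for nuclear body factors, 2.73 for helicases and signalling regulators and 2.39 for lectins and membrane proteins. The smallest differences were those of Ifi27l2a (0.68 ± 0.27), Ifitm3 (1.46 ± 0.13), Bst2 (1.57 ± 0.21) and Pml (1.61 ± 0.11). The 2 groups did not overlap for 33 of 34 genes, beside 40.9% of all tested genes, and Ifi27l2a was the exception. Its call (limma adjusted p = 0.0461) was lost in 5 of the other fits, among them those without untreated WT replicate 1 (log2 0.20) and without WT control replicate 2 (log2 0.49). Scaling by library totals alone, which lowers the median of all genes by 0.52 on the log2 scale here, left 33 of the 34 called higher.

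In KO cells fewer of these genes differed between control medium and untreated cells, and not all in 1 direction. In control medium 17 of 34 were called higher (10.9% of all tested genes) and 2 lower (9.08% of all), and 15 did not pass. The median log2 difference was 0.40, beside 0.00 for all genes. Cmpk2 rose by 1.89 ± 0.13 (3.71-fold), Mx2 by 1.40 ± 0.22 and Mx1 by 1.30 ± 0.19, with limma adjusted p of 2.61e-05, 0.00236 and 0.00172. Rsad2 rose by 1.25 ± 0.21 and Isg15 by 0.92 ± 0.18 (limma adjusted p = 0.0029 and 0.007). The other genes called higher were Ms4a4c, Ifi44, Helz2, Herc6, Nmi, Phf11d, Ifi35, Samhd1, Tor3a, Isg20, Daxx and Phf11b, by 0.96 down to 0.34. Ifitm3 fell by 0.59 ± 0.13 and Pml fell by 0.39 ± 0.11 (limma adjusted p = 0.011 and 0.035). Lgals9 at −0.22 ± 0.10 and Ifi27l2a at −0.34 ± 0.27 were also lower in both KO control libraries than in both untreated ones, without passing the test (limma adjusted p = 0.179 and 0.434). By role, 6 of 10 effectors were called higher and 1 lower, 2 of 4 ISG15 conjugation genes higher, 3 of 5 nuclear body factors higher and 1 lower, 4 of 10 helicases and signalling regulators higher and 2 of 5 lectins and membrane proteins higher. Groups were apart upwards for 22 genes (32.2% of all tested genes) and downwards for 4 (31.0%). The number of genes called was 19 and became 9 without untreated KO replicate 1 and 9 without KO control replicate 2, and 15 and 16 without the others. Pml lost its call with any 1 of the 4 libraries left out, Ifitm3 without untreated KO replicate 2 (−0.46) and without KO control replicate 1 (−0.45), and Isg15 without untreated KO replicate 1 (0.76) and without KO control replicate 2 (0.80).

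As a share of the log2 response of WT cells, the KO response was largest for Cmpk2 at 33.9%, Mx2 at 33.0%, Mx1 at 27.9% and Helz2 at 26.6%. It was −49.1% for Ifi27l2a, −40.7% for Ifitm3 and −23.9% for Pml, which moved the other way. Set beside untreated WT cells, both KO control libraries lay above both WT libraries for 10 of the 34 genes (32.8% of all tested genes), below them for 10 (30.9% of all), and the groups overlapped for 14, so these counts were near those of all genes. Cmpk2, Mx1, Mx2, Rsad2 and Samhd1 were among the 10 above, and Bst2, Ifi27l2a, Ifitm3, Isg20 and Phf11b among the 10 below. That side-by-side view was not tested.

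**Figure D3:**
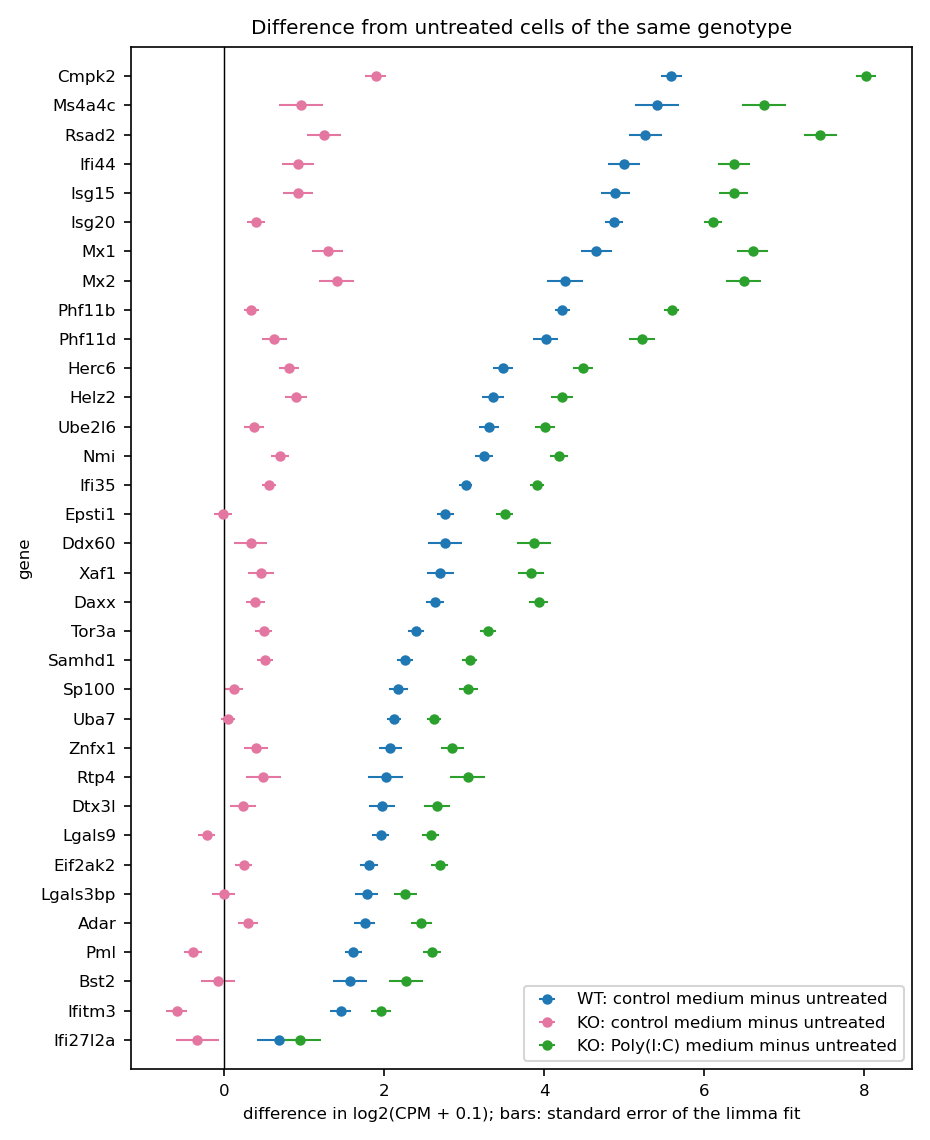
Difference from untreated cells of the same genotype in log2(CPM + 0.1) for each of the 34 genes (rows), with the standard error of the limma fit as bars, for WT control (blue), KO control (pink) and KO Poly(I:C) (green). The pink points run from −0.59 to 1.89 and the blue ones from 0.68 to 5.59, and both KO series share the untreated KO libraries.

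Within the control medium, all 34 genes were lower in KO than in WT cells (30.2% of all tested genes were called lower), with a median log2 difference of −2.79, beside 0.03 for all genes. Ms4a4c differed by −5.24 ± 0.28, Isg20 by −5.09 ± 0.11 and Ifi44 by −4.76 ± 0.20 (limma adjusted p = 1.43e-07, 1.05e-09 and 3.09e-08), from 598, 256 and 258 to 15.8, 7.42 and 9.37 CPM. Rsad2 differed by −4.75 ± 0.21, Isg15 by −4.73 ± 0.18 and Mx1 by −3.99 ± 0.19 (limma adjusted p = 4.53e-08, 2.13e-08 and 8.78e-08). The smallest differences were those of Ifi27l2a (−1.74 ± 0.27), Adar (−1.78 ± 0.13) and Samhd1 (−1.87 ± 0.10). No gene had overlapping groups, beside 39.5% of all tested genes apart in this direction.

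Whether the difference of control from untreated cells was the same in both genotypes was tested as an interaction, the KO response minus the WT response. It was negative for all 34 genes and passed for 33 of them (23.7% of all tested genes were called negative), with a median of −2.34. Isg20 had −4.47 ± 0.16, Ms4a4c −4.45 ± 0.39 and Ifi44 −4.07 ± 0.28, with limma adjusted p of 7.62e-08, 1.28e-05 and 2.75e-06. Rsad2 had −4.01 ± 0.29, Isg15 −3.96 ± 0.26 and Mx1 −3.35 ± 0.27 (limma adjusted p = 3.93e-06, 2.14e-06 and 8.22e-06). Cmpk2, the gene with the largest response under both labels, had −3.69 ± 0.18. Ifi27l2a at −1.02 ± 0.38 did not pass (limma adjusted p = 0.0516). It did pass in 7 of the other fits, including those without untreated WT replicate 2, without WT control replicate 1 and without KO control replicate 2.

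All 34 genes were higher in KO Poly(I:C) cells, whichever KO group these were set against. The labels give no time, serum or albumin for KO Poly(I:C) or untreated KO cells. Effects of Poly(I:C) and of a difference in time or medium therefore cannot be told apart. Against KO control (32.5% of all tested genes were called higher) the median log2 difference was 3.36, beside −0.06 for all genes. Rsad2 rose by 6.2 ± 0.21 (73.4-fold), Cmpk2 by 6.13 ± 0.13 (69.9-fold) and Ms4a4c by 5.79 ± 0.28 (55.4-fold), with limma adjusted p of 4.82e-09, 3.85e-10 and 4.28e-08. Isg15 rose by 5.44 ± 0.18 and Mx1 by 5.31 ± 0.19 (limma adjusted p = 5.07e-09 and 7.64e-09). The smallest was Ifi27l2a, at 1.28 ± 0.27. Against untreated KO cells (34.5% of all called higher) the median was 3.85. Here Cmpk2 rose by 8.02 ± 0.13 (260-fold), Rsad2 by 7.45 ± 0.21 (174-fold) and Ms4a4c by 6.75 ± 0.28 (108-fold), with limma adjusted p of 4.53e-11, 1.26e-09 and 1.22e-08. Mx1 rose by 6.60 ± 0.19 and Isg15 by 6.36 ± 0.18 (limma adjusted p = 1.74e-09 and 1.56e-09), and Ifi27l2a by 0.94 ± 0.27. In neither comparison did the groups overlap for any of the 34 genes, beside 39.7% and 41.0% of all tested genes apart upwards. Ifi27l2a alone lost its call when libraries were scaled by their totals (log2 0.56 against KO control and 0.19 against untreated KO), and, against untreated KO, also without untreated KO replicate 1 (0.84) and without KO Poly(I:C) replicate 2 (0.84).

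The WT control and KO Poly(I:C) responses, each taken from untreated cells of its own label, share no library. Across the 34 genes they followed each other closely, with Pearson r = 0.986 and Spearman rho = 0.983, as a description of genes that were chosen together and share a scaling in each library. Set side by side and not tested, every gene had the larger log2 difference with Poly(I:C), from 0.94 beside 0.68 for Ifi27l2a to 8.02 beside 5.59 for Cmpk2. The 2 differences start from different levels, since untreated KO was below untreated WT for 33 of 34 genes (median −0.38). A larger difference is therefore not always a higher level: Ifi27l2a averaged 106 CPM with Poly(I:C) and 147 CPM in WT control. Genes lower in untreated cells tended to have larger responses: the WT response against the untreated KO level gave r = −0.69 and rho = −0.695 over the 34 genes. With an ISRE core in the promoter window, 8 genes had a median WT response of 2.36 and a median Poly(I:C) response of 3.28. The 21 genes with a window and no match had 2.76 and 3.91.

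**Figure D4:**
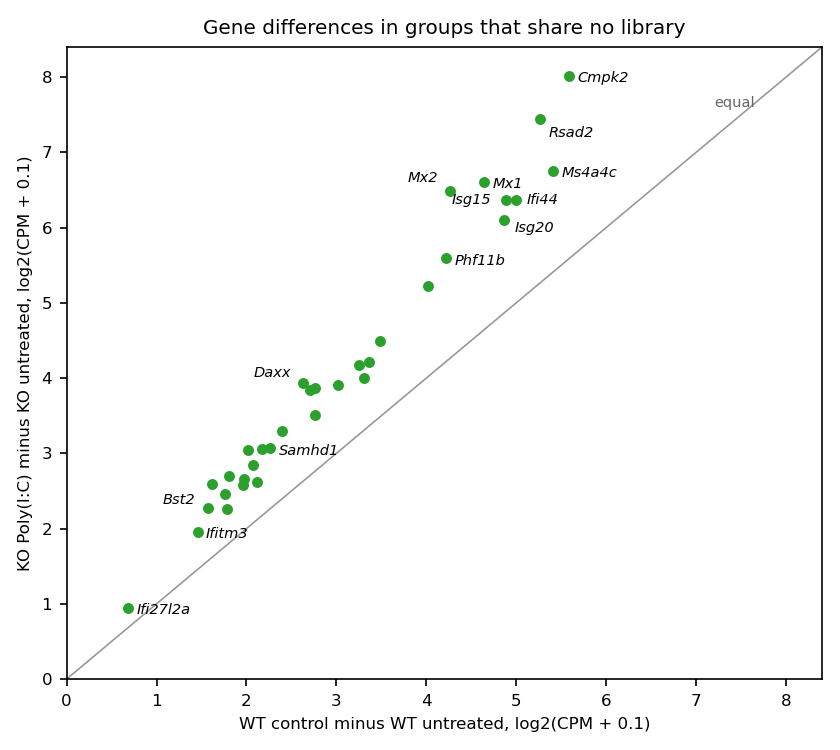
Difference of WT control from untreated WT (x axis) against that of KO Poly(I:C) from untreated KO (y axis), both in log2(CPM + 0.1), 1 point per gene, with the line of equal values. All 34 points lie above the line, and Cmpk2, Rsad2, Mx1 and Mx2 lie farther from it than Ms4a4c. The untreated levels behind the 2 axes differ.

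Compared with WT control, where genotype and treatment differ together, KO Poly(I:C) cells had higher levels of 25 of the 34 genes (11.9% of all tested genes were called higher) and lower levels of 0 (11.9% of all; also 0 at an unadjusted limma p under 0.05, beside 19.3% of all). The median log2 difference was 0.55, beside −0.03 for all genes. Mx2 was higher by 1.66 ± 0.22 (3.16-fold), Cmpk2 by 1.47 ± 0.13, Rsad2 by 1.45 ± 0.21 and Mx1 by 1.32 ± 0.19, with limma adjusted p of 0.00113, 0.000192, 0.00149 and 0.00168. Daxx came next at 0.94 ± 0.12, and Isg15 was higher by 0.71 ± 0.18 (limma adjusted p = 0.0208). The 9 genes that did not pass were Ms4a4c (0.55 ± 0.28), Dtx3l, Rtp4, Adar, Helz2, Bst2, Ifitm3, Lgals3bp and Ifi27l2a (−0.46 ± 0.27). By role, 7 of 10 effectors, all 4 ISG15 conjugation genes, all 5 nuclear body factors, 6 of 10 helicases and signalling regulators and 3 of 5 lectins and membrane proteins were called higher. Groups were apart upwards for 31 genes (29.4% of all tested genes) and downwards for 1, Ifi27l2a (33.0% of all). Across the 34 genes this difference correlated with the KO response to control medium at r = 0.76 and rho = 0.636, a description over genes from groups that share no library. The number called became 12 without WT control replicate 1, 13 without KO Poly(I:C) replicate 2, 17 without KO Poly(I:C) replicate 1 and 24 without WT control replicate 2. Isg15 lost its call in the first 3 of these, at 0.58, 0.72 and 0.70, whereas Mx2, Cmpk2, Rsad2 and Mx1 kept theirs in all 12 other fits. Scaling by totals alone, which moves the median of all genes to −0.24, gave 16 genes higher and 1, Ifi27l2a at −0.69, lower, and 15.3% of the calls over all genes were then higher, against 49.9%.

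**Figure D5:**
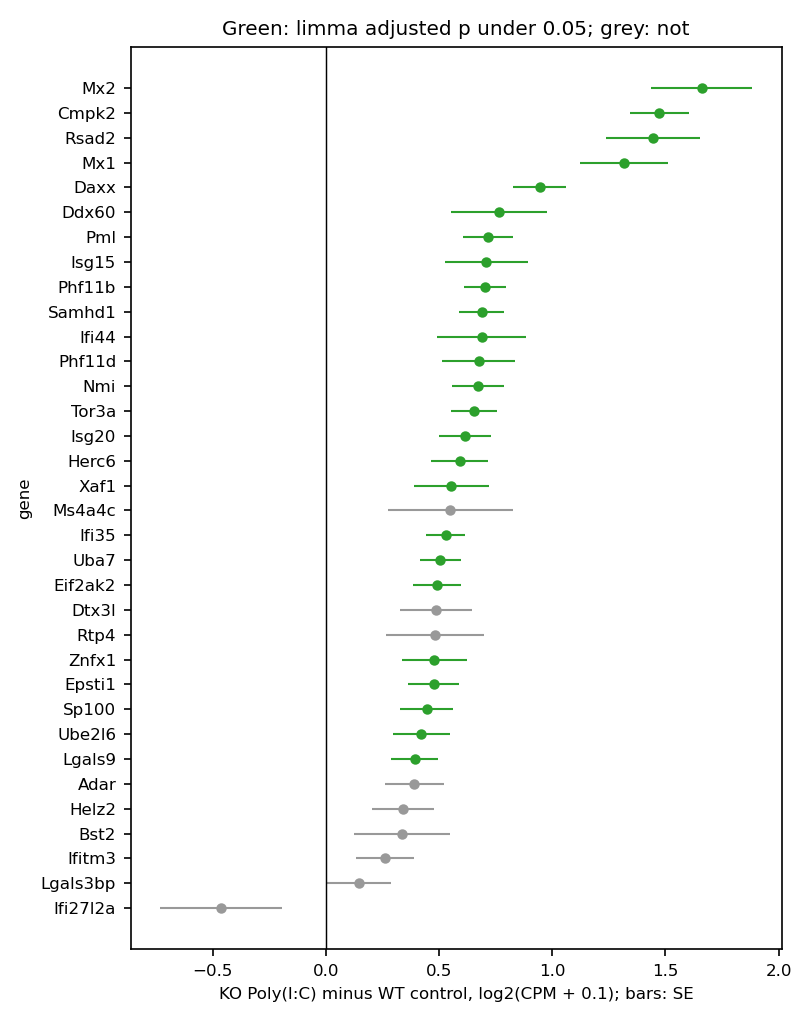
KO Poly(I:C) minus WT control in log2(CPM + 0.1) for each of the 34 genes (rows), with the standard error as bars, green where the limma adjusted p is under 0.05 and grey where it is not. Mx2, Cmpk2, Rsad2 and Mx1 lie between 1.32 and 1.66, apart from the other genes, and Ifi27l2a alone lies below 0.

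Neighbouring genes were compared as ratios of CPM, uncorrected for length, so that only changes of a ratio between libraries can be read. Cmpk2 and Rsad2 lie 12752 bp apart on chromosome 12 in opposite directions (GENCODE M21, GRCm38), and the Cmpk2 level was 0.201 to 0.366 of that of Rsad2 in the 10 libraries, while Rsad2 itself ranged from 82.9 to 17646 CPM. The mean ratio was lowest in untreated KO cells (0.223) and highest in KO control (0.349), but the libraries of untreated KO and WT cells overlapped, as did those of KO control and KO Poly(I:C). Mx2 stood at 0.138 to 0.209 of Mx1, 72401 bp away on chromosome 16. This ratio was lowest in both WT control libraries (0.138 and 0.143), and its mean was 0.178 in KO Poly(I:C) and 0.207 in KO control. Phf11b stood at 0.801 to 1.37 of Phf11d, 6056 bp away on chromosome 14, and the ratio was 1.33 in WT control, 1.35 in KO Poly(I:C) and 0.859 in KO control. The sources used here do not say how reads shared by such paralogues, or by Ifi27l2a and its copies, were divided, so the separate values of these genes are uncertain.

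The genes upstream of this response were read from 4 lists. Among 10 genes of double-stranded RNA sensing, 8 rose in WT cells in control medium over untreated cells (33.1% of all tested genes rose). Mavs, the mitochondrial adaptor of the cytosolic sensors, was the 1 gene that fell (32.8% of all), by 1.03. The largest increases were Zbp1 (3.78), Ifih1, which encodes MDA5 (3.34), and Tlr3 (3.08). In KO cells 0 of 10 rose, beside 10.9% of all tested genes (3 at an unadjusted limma p under 0.05, beside 17.6% of all), and the 8 that had risen in WT cells had limma adjusted p from 0.0658 (Zbp1) to 0.863 (Tlr3). Mavs fell by 0.60 (9.08% of all tested genes fell). Tlr3 was at 11.4 and 11.3 CPM in untreated WT, 9.91 and 11.1 in untreated KO, 88.8 and 106 in WT control, 10.5 and 11 in KO control and 166 and 195 in KO Poly(I:C). Ticam1 was at 46.9 and 47.6, 40.9 and 44.1, 76.8 and 82.7, 45.5 and 46.5, and 93.2 and 93.4 CPM in the same order of groups. Both were high in the same 4 libraries as the antiviral genes. With Poly(I:C) the same number, 8 of the 10, rose over KO control (32.5% of all tested genes) and Mavs fell by 1.01 (36.9% of all fell). These shares of all genes also stand behind the counts of the next 3 lists. Under scaling by library totals alone these counts of 8 stood, Irf3 was called lower as well in WT control and with Poly(I:C), and Mavs remained lower.

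Of 13 interferon signalling genes 12 were tested, and all 12 rose in control medium in WT cells (9 with totals alone, without Irf2, Irf8 and Jak1). In KO cells 2 of the 12 rose, among them Irf7, the amplifier of interferon genes, by 0.74 ± 0.20 (limma adjusted p = 0.0283), while Irf8 fell and the other 9 did not pass, counts near the 10.9% and 9.08% of all tested genes that rose and fell. In WT cells Irf7 rose by 4.35, and Ifnb1, interferon beta, was called higher from a level near 0. All 12 were lower in KO than WT control (30.2% of all tested genes) and all 12 rose with Poly(I:C) over KO control (10 and 10 with totals alone). Ifnb1 was listed at 0 and 0.0993 CPM in untreated WT, at 0 in both untreated KO libraries, at 0.923 and 1.46 CPM in WT control, 0.066 and 0 in KO control and 33.2 and 29.3 in KO Poly(I:C). KO Poly(I:C) exceeded WT control by 4.63 ± 0.39 on the log2 scale for Ifnb1 (limma adjusted p = 0.00015), beside the 0.55 median of the 34 genes. Irf9, a transcription factor subunit that binds the ISRE, rose by 0.89 in WT control and by 1.17 with Poly(I:C) over KO control, and was at 0.21 in KO control (limma adjusted p = 0.193). Of 8 genes listed as brakes on interferon signalling, 7 rose in WT control (33.1% of all tested genes) and 4 in KO control (10.9% of all). All 8 rose with Poly(I:C) over KO control. Isg15 is 1 of the 8 and also 1 of the 34 genes, and these data do not show that it acts as a brake. With totals alone these counts were 6, 3 and 6, and Pias1 was then called lower in WT control and Pias1 and Ptpn6 with Poly(I:C). Usp18, which removes ISG15 and blocks the receptor, rose by 4.58 ± 0.17 in WT and by 1.60 ± 0.17 in KO control (limma adjusted p = 1.42e-08 and 0.000268), from 13.4 to 41.0 CPM in KO cells. Besides Usp18, Isg15 and Socs3 (3.18) had the largest increases in WT cells. Of 5 interferon-gamma genes 4 were tested: in WT cells 3 rose and Ifngr1, a receptor chain, fell by 0.89, in KO cells 2 rose and Ifngr1 fell by 0.24, and with Poly(I:C) over KO control 2 rose and Ifngr1 fell by 1.23. With totals alone 2, 2 and 1 rose, and Ifngr1 was lower in each; in KO cells Jak2, 1 of the 2 that rose, did not pass with the deposited scaling, with median-of-ratios scaling or in the rlog table, and Ifngr1 did not pass with the deposited scaling. Ifng was listed at 0 in 9 libraries and at 0.0327 CPM in the other.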

How the data were processed

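Poly-A RNA from BMDM was sequenced as 10 stranded libraries (Qiagen RNeasy, TruSeq Stranded mRNA, per the labels' protocols). Of software, Trim Galore 0.2.8, and STAR 2.4.0d, also RSEM 1.2.12 and DESeq2 are listed in the submitters' processing notes, without roles. The sources used here give no genome build. The authors deposited a whole-number signal per gene and library and a second table with log2 values (rlog). The signal is not raw reads: low values lie on a grid, as after scaling by 1 factor per library and rounding, and the 75th percentile over all rows was 25 in every library. Groups and replicate numbers came from the sample titles.

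From the deposited signal, CPM were computed with totals times trimmed mean of M values (TMM) factors (30% of M and 5% of A values trimmed). Genes at 10 or more in at least 2 libraries were kept (13171 of 20687 above 0), and limma 3.58.1 in R 4.3.3 with a trend was fitted to log2(CPM + 0.1) of all 10 libraries with 5 group means (5 residual and 4.82 prior degrees of freedom). Fold changes are on this scale, so that those of low genes are understated. Adjustment was over all genes tested. The code of the fit was run on simulated counts, which lack the scaling and rounding of the deposited values, so that run does not support the calls. The 34 genes and the lists were chosen with earlier results of these data known. Per-library values are given for the 3 genes with the largest called difference in each direction of a comparison, for genes called against the majority and for Isg15, Rsad2 and Mx1; the others are given in ranges, and from the pathway lists the top 3 and 7 fixed genes were to be named, of which 1 item is not reported here. There were 8 comparisons. Promoters and gene positions are from RefSeq (GRCm38.p6) and GENCODE M21 (GRCm38), which may not be the authors' build. Other scalings, pseudocount, filter, samples, a replicate block, single libraries left out and the rlog table were tried.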

Additional observations from a re-analysis of the deposited data

Results flagged for a closer look

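The difference of control from untreated cells was not the same in both genotypes for 33 of the 34 antiviral genes, by limma's test of the interaction (KO response minus WT response). All 33 were negative, beside 23.7% of all tested genes. The difference on the log2 scale was −4.47 for Isg20, −4.45 for Ms4a4c, −4.07 for Ifi44, −4.01 for Rsad2, −3.96 for Isg15 and −3.35 for Mx1. Groups of 2 libraries are too small to test for a library that stands apart.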

How the results depend on the processing

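No gene that was called kept its call with the opposite sign under another setting. For KO against WT untreated cells the 2 called genes became 0 with no filter on low values, 0 in a fit on only the groups compared and 14 with the replicate block, and 0 to 1 with a library left out. Over all genes that comparison had 22 calls, 14 without the filter, 2 in the groups alone, 99 with the block and 11 to 69 with a library left out. For KO control against untreated the 19 genes became 9 to 16 with a library left out, and all genes went from 2632 to between 1037 and 1584. For KO Poly(I:C) against WT control the 25 genes became 12 to 24 with a library left out, and all genes went from 3128 to between 1241 and 2452, and to 5001 with totals alone. The replicate block rests on numbers only. Same-numbered libraries' deviations correlated at 0.171 to 0.315 between groups of the same genotype label. Between the labels they correlated at 0.0128 to 0.111, so not all pairs were over 0.1. A pairing within each genotype label was not fitted, so the treatment comparisons leave any such pairing out. No other count of the 34 genes moved by more than 1.5 times in any setting run.

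The values that changed sign had not been called. Uba7 in KO against WT untreated was −0.0031 with totals alone and −0.012 with the deposited scaling, and −0.077 to 0.088 with a library left out. Lgals3bp in KO Poly(I:C) against WT control was −0.085 with totals alone. In KO control against untreated, leaving out a library gave −0.27 to 0.11 for Bst2, −0.023 to 0.26 for Sp100, −0.051 to 0.14 for Uba7, −0.14 to 0.13 for Lgals3bp and −0.082 to 0.047 for Epsti1. Totals alone moved the median of all genes by up to −0.74 (KO Poly(I:C) against untreated, from −0.04 to −0.77), and only 22.8% of all calls in WT control were then higher, against 50.2%. With the deposited scaling that share was 60.1%. The shares for KO control against WT control were 50.6%, 78.7% with totals alone and 37.5% with the deposited scaling; for the interaction 48.2%, 79.4% and 35.0%; for KO Poly(I:C) against KO control 46.8%, 19% and 58.1%; against KO untreated 47.8%, 20.3% and 57.6%; against WT control 49.9%, 15.3% and 56.8%. For KO against WT untreated, 11 of 22 calls were higher, 12 of 31 with totals alone and 10 of 25 with the deposited scaling. The count test planned on reads recovered from the deposited values was not run, since they were rounded after scaling and whole reads were not recovered. Depth is unknown, and with 2 libraries a group a lone library left in a group is assumed to vary like the others.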

Other observations

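Within each group the library labelled replicate 2 had the higher level for most of the antiviral genes. This held for 29 of 34 genes in untreated WT, 32 in untreated KO, 34 in WT control, 32 in KO control and 26 in KO Poly(I:C). Among all tested genes, 51.3%, 52.7%, 53.8%, 49.3% and 44.5% were higher in replicate 2. The median log2 difference of replicate 2 over replicate 1 for the 34 genes was 0.19, 0.25, 0.24, 0.25 and 0.05 in the same order. The labels do not say what a replicate number stands for.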
